A study of Mus musculus with 12 samples.

Results

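The genes described here are the D-type cyclins, the kinases they switch on and the inhibitors of those kinases. They were chosen by name as genes that control progress through the G1 phase, and are the 3 D-type cyclins Ccnd1, Ccnd2 and Ccnd3, the 2 kinases Cdk4 and Cdk6, the 3 CIP/KIP inhibitors Cdkn1a, Cdkn1b and Cdkn1c, and the 2 INK4 inhibitors Cdkn2b and Cdkn2c. The choice was made with earlier results of these data known. All 10 were found among the 55487 genes of the expression table, and all 10 passed the filter on low values. That filter asked for at least 1 CPM (reads of a gene per 1000000 reads counted to genes) in at least 3 libraries.

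The study measured RNA by sequencing in primary mouse vascular smooth muscle cells, the contractile cells of the vessel wall, in 12 libraries in 4 groups of 3. The groups were wild-type cells left untreated, wild-type cells given 40 µg/L of the growth factor PDGF-BB for 6 h, cells of Tigar knockout mice left untreated, and cells of Tigar knockout mice given the same PDGF-BB treatment. Cells of every group came from mice 4 to 6 weeks old, were grown in DMEM/F12 medium with fetal bovine serum and antibiotics, and were used between passages 4 and 6. The labels give no strain, sex, vessel, knockout allele or number of animals. They also leave unsaid whether replicate libraries stand for different mice or cultures, so that p-values measure the spread between these libraries, which may be technical.

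D-type cyclins are the growth-factor sensors of the cell cycle: mitogens raise their amount, they bind CDK4 or CDK6, and the active kinase phosphorylates the retinoblastoma protein, which then lets go of E2F transcription factors. INK4 proteins bind CDK4 and CDK6 themselves and keep the cyclin out, whereas the CIP/KIP proteins p21 (Cdkn1a), p27 (Cdkn1b) and p57 (Cdkn1c) bind cyclin-kinase complexes and block CDK2 above all. In the vessel wall PDGF-BB, released by platelets among other cells, drives smooth muscle cells to migrate and divide, and p27 is a known brake on that division.

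The targeted gene went against the labels. Tigar, on chromosome 6, had 6.99, 8.61 and 6.91 CPM in the 3 untreated wild-type libraries and 10.0, 12.2 and 11.3 CPM in the 3 untreated libraries labelled knockout. With PDGF-BB it had 11.5, 11.5 and 12.6 CPM in wild-type and 14.6, 14.7 and 16.2 CPM in the libraries labelled knockout. Its level was thus higher, not lower, under the knockout label, by 0.52 ± 0.11 (log2, SE) untreated and by 0.33 ± 0.11 with PDGF-BB. The sources used here do not give which part of the gene was removed, and a count over the whole gene cannot show whether a part of it is missing, so the cells are called labelled knockout throughout and every direction between genotypes rests on those labels. Ccnd2 lies on the same chromosome, 15.6 kb from Tigar, with no gene wholly between them.

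Libraries held 14953807 to 21698488 reads counted to genes, and 1 library stood apart. Replicate 1 of wild-type with PDGF-BB deviated from its group mean by 0.278 (root mean square over genes, log2), against 0.0954 to 0.196 in the other 11. In it genes with long exon sequence were low and genes with short exon sequence high (Spearman rho across genes between deviation and exon length -0.44, against -0.05 to 0.14 in the others). Changes of the 10 genes that move by over 1.5 times without this library, or turn in direction, are given with and without it. The cells expressed smooth muscle genes in every group, the summed CPM of 8 markers being 1470 to 2294 in wild-type and 2259 to 3466 in labelled knockout libraries. Most of that sum was Acta2, and Myh11 and Cnn1 were present, whereas Tagln was counted at 2.98 to 7.12 CPM, Myocd at 0.182 to 3.21 CPM and Des at 0.356 to 0.953 CPM.

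Within the families, Ccnd2 was the D-type cyclin with the most RNA and Cdk4 the main kinase. Levels of different genes were compared as CPM per kb of exon length as the table gives it. In untreated wild-type cells Cdkn1a stood at 450.0 ± 16.3 (SD, n = 3) and Ccnd2 at 212 CPM per kb, followed by Ccnd1 at 77.9, Ccnd3 at 65.0, Cdk4 at 55.3, Cdkn2b at 38.4, Cdkn1b at 31.3, Cdkn2c at 8.51, Cdk6 at 3.09 and Cdkn1c at 1.09 CPM per kb. In that group no neighbours in this order overlapped. In untreated labelled knockout cells Ccnd1, Cdk4 and Ccnd3 stood at 55.0, 51.0 and 49.2 CPM per kb and overlapped, each with the next in the order. In labelled knockout cells with PDGF-BB Cdk6 and Cdkn2c, at 4.11 and 4.00 CPM per kb, overlapped. The order depends on the length used: with the union of annotated exons (GENCODE M21) Cdkn1a, whose length rises from 922 to 3553 bases, came to 117 CPM per kb in untreated wild-type cells, below Ccnd2 at 143 CPM per kb, and Ccnd3 took the seventh place at 15.7 CPM per kb. Ccnd2 above Ccnd1, Cdk4 above Cdk6 and Cdkn1c at the bottom held with both lengths in all 4 groups.

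**Figure D1:**
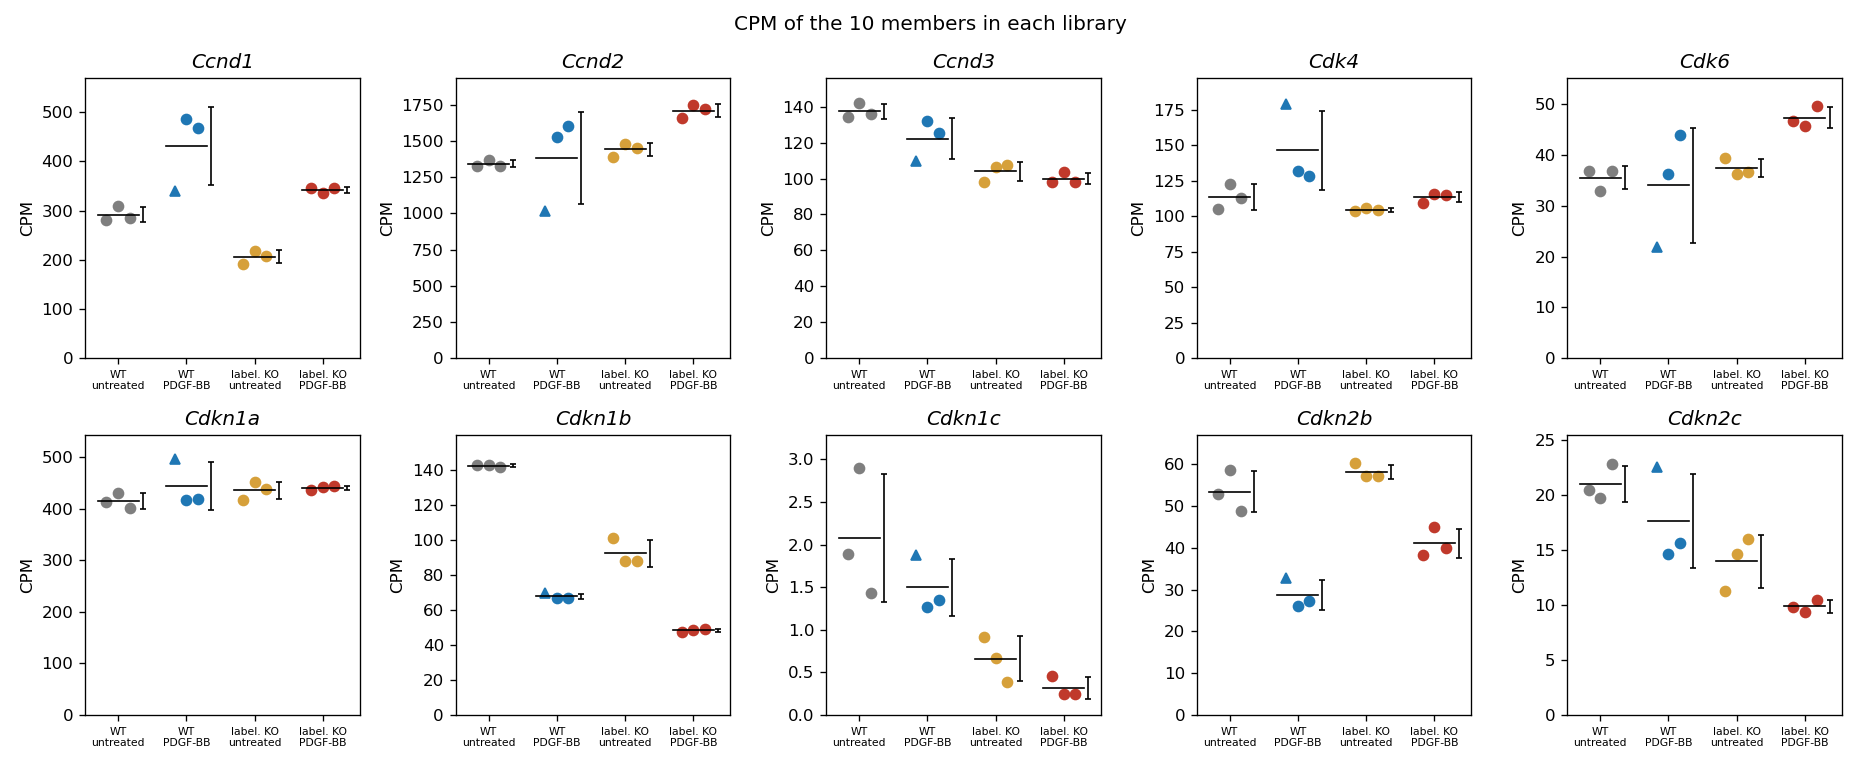
CPM of each of the 10 genes (vertical axes from 0, each with its own scale) in the 12 libraries, 3 in each group. Points are libraries, horizontal lines group means and bars 1 SD; triangles mark replicate 1 of wild-type with PDGF-BB. Cdkn1b and Cdkn2b are lower and Ccnd1 is higher in every PDGF-BB library than in the untreated libraries of the same genotype. The triangle is the highest or lowest point of its group in every panel, Cdkn2b among them, though by little in Cdkn1b.

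The first comparison asked how 6 h of PDGF-BB changed these genes in wild-type cells. Ccnd1 and Cdk4 were higher and Cdkn1b and Cdkn2b lower with PDGF-BB, and the other 6 were not called. That is 4 of 10 members called, 2 in each direction, against 59.4% of the 14202 genes tested (25.0% higher, 34.4% lower), so that the members were called no more often than genes at large. A call here and below is an adjusted p under 0.05 by limma-trend on log2(CPM + 1), 2-sided, with Benjamini-Hochberg adjustment over all genes tested, and every adjusted p in the text comes from it unless another tool is named. The members' median change was -0.14 and that of all genes -0.08 on the log2 scale. Without replicate 1 of the treated group 6 members were called, against 63.7% of all genes: Ccnd2 joined those higher and Cdkn2c those lower.

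In labelled knockout cells PDGF-BB again went with more Ccnd1 and with less Cdkn1b and Cdkn2b, and Cdkn2c was lower too. These were 4 of 10 members, 1 higher and 3 lower, against 42.4% of all genes (17.6% higher, 24.8% lower), with a median over the members of -0.02 against -0.07 for all genes. Libraries with and without PDGF-BB did not overlap for 5 of 10 members in wild-type (62.3% of all genes) and for 7 of 10 in labelled knockout (63.2%).

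Ccnd1 encodes cyclin D1, the classical mitogen-induced cyclin; the gene lies on chromosome 7 from 144929931 to 144939925 on the minus strand (GRCm38). In wild-type cells it had 282, 309 and 284 CPM untreated and 340.3, 486 and 468 CPM with PDGF-BB. Labelled knockout libraries had 192, 218 and 207 CPM untreated and 345, 335 and 346 CPM with PDGF-BB. Every treated library lay above every untreated library of its genotype. The change was 0.55 ± 0.11 (log2, SE; adjusted p = 0.000803), or 1.46-fold, in wild-type and 0.73 ± 0.11 (adjusted p = 0.000153), or 1.66-fold, in labelled knockout. The lowest treated wild-type library was the one that stood apart, and without it the change in wild-type was 0.71 ± 0.06. An opposite-strand gene, LTO1, covers 23.4% of the annotated exon bases of Ccnd1, and whether reads were assigned by strand is not given in the sources used here; LTO1 itself was counted at 21.9 to 36.3 CPM.

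Ccnd2, encoding cyclin D2, was the most abundant of the 3 but was not called under PDGF-BB in either genotype. It had 1328, 1371 and 1330 CPM in untreated and 1020, 1527 and 1601 CPM in treated wild-type libraries. Labelled knockout libraries had 1392, 1483 and 1455 CPM untreated and 1661, 1746 and 1721 CPM with PDGF-BB. The wild-type groups overlapped through 1 treated library, replicate 1, which was the lowest of all 12, while in labelled knockout cells all treated libraries lay above all untreated ones. The changes were 0.01 (95% interval -0.27 to 0.30) and 0.24 (-0.04 to 0.53; adjusted p = 0.151). Without the library that stood apart, which also widens the spread used for the other groups, both were called, at 0.22 ± 0.05 (adjusted p = 0.00108) and 0.24 ± 0.05 (adjusted p = 0.000177).

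Ccnd3 encodes cyclin D3 and lies on chromosome 17. It had 134, 142 and 136 CPM in untreated and 109.6, 132 and 125 CPM in treated wild-type libraries, which did not overlap. Its levels under the knockout label were 97.8, 106 and 108 CPM untreated and 98.3, 104 and 98.1 CPM treated, which did. The changes, -0.17 (95% interval -0.33 to -0.01; adjusted p = 0.0597) and -0.06 (-0.21 to 0.10), were not called. Without the library that stood apart, which was the lowest of the treated wild-type group, the first was -0.09 ± 0.05 (adjusted p = 0.129). The opposite-strand gene Bysl covers 4.11% of the annotated exon bases of Ccnd3 and was counted at 14.4 to 48.6 CPM. The D-type cyclins thus differed among themselves under PDGF-BB, with Ccnd1 called higher in both genotypes and Ccnd3 called in neither.

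Cdk4 encodes the more abundant of the 2 kinases. It had 105, 123 and 113 CPM in untreated and 179, 132 and 128 CPM in treated wild-type libraries. Labelled knockout libraries had 103, 106 and 104 CPM untreated and 109, 116 and 115 CPM treated. Treated and untreated libraries did not overlap in either genotype. The change in wild-type was 0.35 ± 0.10 (adjusted p = 0.0110), or 1.28-fold, and the highest library was again replicate 1; without it the change was 0.20 ± 0.06 (adjusted p = 0.00549). The call was lost when only the compared groups entered the fit (adjusted p = 0.0619) and without replicate 1 of untreated wild-type (adjusted p = 0.0534). In labelled knockout cells the change was 0.11 (95% interval -0.11 to 0.34; adjusted p = 0.409). The opposite-strand gene Tspan31 covers 19.7% of the exon bases of Cdk4 and was counted at 45.0 to 65.5 CPM.

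Cdk6 was the minor kinase by RNA. It had 36.9, 32.9 and 36.8 CPM in untreated and 21.8, 36.2 and 44.1 CPM in treated wild-type libraries. Under the knockout label it had 39.5, 36.2 and 36.7 CPM untreated and 46.8, 45.7 and 49.7 CPM treated. The treated wild-type libraries spanned the untreated ones, replicate 1 being the lowest of the 12, and the treated labelled knockout libraries all lay above the untreated. The changes of -0.12 (95% interval -0.50 to 0.26) and 0.33 (-0.05 to 0.71; adjusted p = 0.149) were not called. Without that library the change in wild-type turned in direction, to 0.17 ± 0.08 (adjusted p = 0.0805), and was still not called, while that in labelled knockout was called, at 0.33 ± 0.07 (adjusted p = 0.000762).

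Cdkn1b, which encodes p27, showed the change under PDGF-BB with the smallest adjusted p of the 10 genes in each genotype. It had 143, 143 and 142 CPM in untreated and 69.5, 66.8 and 66.9 CPM in treated wild-type libraries. Labelled knockout libraries had 101, 87.9 and 88.2 CPM untreated and 47.5, 48.4 and 49.3 CPM treated. The 4 groups were separate from one another, in the order untreated wild-type, untreated labelled knockout, treated wild-type and treated labelled knockout. Cdkn1b fell by 1.06 ± 0.06 on the log2 scale (adjusted p = 2.73e-08), to 0.479 of its level, in wild-type and by 0.92 ± 0.06 (adjusted p = 2.67e-07), to 0.530 of its level, in labelled knockout. No annotated exon of another gene overlaps its exons.

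Cdkn2b, which encodes the INK4 protein p15, moved the same way. It had 52.8, 58.5 and 48.9 CPM in untreated and 32.9, 26.0 and 27.3 CPM in treated wild-type libraries. Labelled knockout libraries had 60.1, 57.1 and 57.1 CPM untreated and 38.3, 45.0 and 39.9 CPM treated. All treated libraries lay below all untreated ones, and the treated wild-type libraries lay below the treated labelled knockout ones. Cdkn2b fell by 0.88 ± 0.10 (adjusted p = 5.92e-06) in wild-type and by 0.49 ± 0.10 (adjusted p = 0.00121) in labelled knockout.

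The promoters of the 2 inhibitors that fell in both genotypes, and of Cdk4, which was called under PDGF-BB in wild-type only, are shown. Each is the 250 bases before a transcription start in RefSeq (GRCm38.p6), written 5′ to 3′ on the gene's own strand. The window lies at chr6:134920151-134920400 on the plus strand for Cdkn1b and at chr4:89311033-89311282 on the minus strand for Cdkn2b. For Cdk4 it lies at chr10:127063285-127063534 on the plus strand. Capitals mark matches, on either strand, to the motifs searched.
Cdkn1b: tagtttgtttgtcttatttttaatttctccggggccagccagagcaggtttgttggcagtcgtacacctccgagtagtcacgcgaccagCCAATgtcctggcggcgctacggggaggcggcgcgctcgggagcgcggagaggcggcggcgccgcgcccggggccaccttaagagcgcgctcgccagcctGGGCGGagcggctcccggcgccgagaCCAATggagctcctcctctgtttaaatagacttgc
Cdkn2b: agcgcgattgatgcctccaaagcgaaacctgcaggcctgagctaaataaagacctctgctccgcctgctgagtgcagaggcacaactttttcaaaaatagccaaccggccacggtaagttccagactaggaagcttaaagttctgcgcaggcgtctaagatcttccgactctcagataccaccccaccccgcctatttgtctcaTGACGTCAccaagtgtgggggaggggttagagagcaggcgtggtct
Cdk4: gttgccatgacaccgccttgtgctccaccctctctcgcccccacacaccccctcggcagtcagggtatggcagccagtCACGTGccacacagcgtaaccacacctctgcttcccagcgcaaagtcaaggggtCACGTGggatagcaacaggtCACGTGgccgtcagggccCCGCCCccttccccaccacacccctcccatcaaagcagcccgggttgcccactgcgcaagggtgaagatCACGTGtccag

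Of the 10 genes 7 had entries in that promoter table, with 10 windows in all; Ccnd1, Ccnd2 and Cdkn1c were not among them. The motifs searched were the AP-1 site TGANTCA, the cyclic AMP response element TGACGTCA, the FoxO core GTAAACA, the E2F forms TTTGGCGC and TTTCGCGC, the GC box GGGCGG, the E-box CACGTG, the TATA box TATAAA and the CCAAT box. The Cdkn1b window holds CCAAT boxes that begin 161 and 35 bases before the start and a GC box 61 bases before it, motifs that 33.8% and 32.7% of 32817 windows of this length hold. The Cdkn2b window holds a cyclic AMP response element 46 bases before the start, found in 1.55% of windows. The Cdk4 window holds 4 E-boxes, the class of site that MYC with MAX can bind, and 7 of all windows (0.0213%) hold at least that many. The Ccnd3 windows hold a FoxO core, and no window of the 7 genes holds the AP-1 or E2F forms searched, which says only that these letters are not there. A match is a description of sequence, not of binding.

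Cdkn2c encodes the INK4 protein p18. It had 20.5, 19.8 and 22.9 CPM in untreated and 22.6, 14.7 and 15.7 CPM in treated wild-type libraries. Its levels under the knockout label were 11.3, 14.6 and 16.0 CPM untreated and 9.82, 9.34 and 10.5 CPM treated. The wild-type groups overlapped through treated replicate 1, and the labelled knockout groups did not overlap. The change was -0.26 (95% interval -0.59 to 0.07; adjusted p = 0.153) in wild-type, and -0.44 ± 0.12 (adjusted p = 0.00351) without that replicate. In labelled knockout cells Cdkn2c fell by 0.45 ± 0.15 (adjusted p = 0.0289), a call lost in 6 of 24 alternatives, with adjusted p from 0.0634 to 0.119 in those.

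Cdkn1a, which encodes p21, the p53-responsive inhibitor, was not called in either genotype. It had 414, 431 and 401 CPM in untreated and 497, 417 and 418 CPM in treated wild-type libraries. Under the knockout label it had 417, 451 and 438 CPM untreated and 437, 441 and 444 CPM treated, and the groups overlapped in both genotypes. The 95% intervals, -0.07 to 0.25 and -0.14 to 0.18 on the log2 scale, exclude changes of the size seen for Cdkn1b. The wild-type change of Cdkn1a was 0.09, and 0.01 ± 0.05 without replicate 1, the highest treated library. Cdkn1c, which encodes p57 and is imprinted, was near the limit of detection with 4 to 57 reads per library. Its levels were 1.89, 2.90 and 1.43 CPM in untreated wild-type, 1.88, 1.26 and 1.35 CPM in treated wild-type, 0.916, 0.669 and 0.389 CPM in untreated labelled knockout and 0.461, 0.243 and 0.25 CPM in treated labelled knockout libraries. Only its wild-type libraries reached the 1 CPM that the filter on low values asked for. The changes of Cdkn1c under PDGF-BB, -0.28 (-0.68 to 0.12) and -0.32 (-0.72 to 0.08), were not called.

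**Figure D2:**
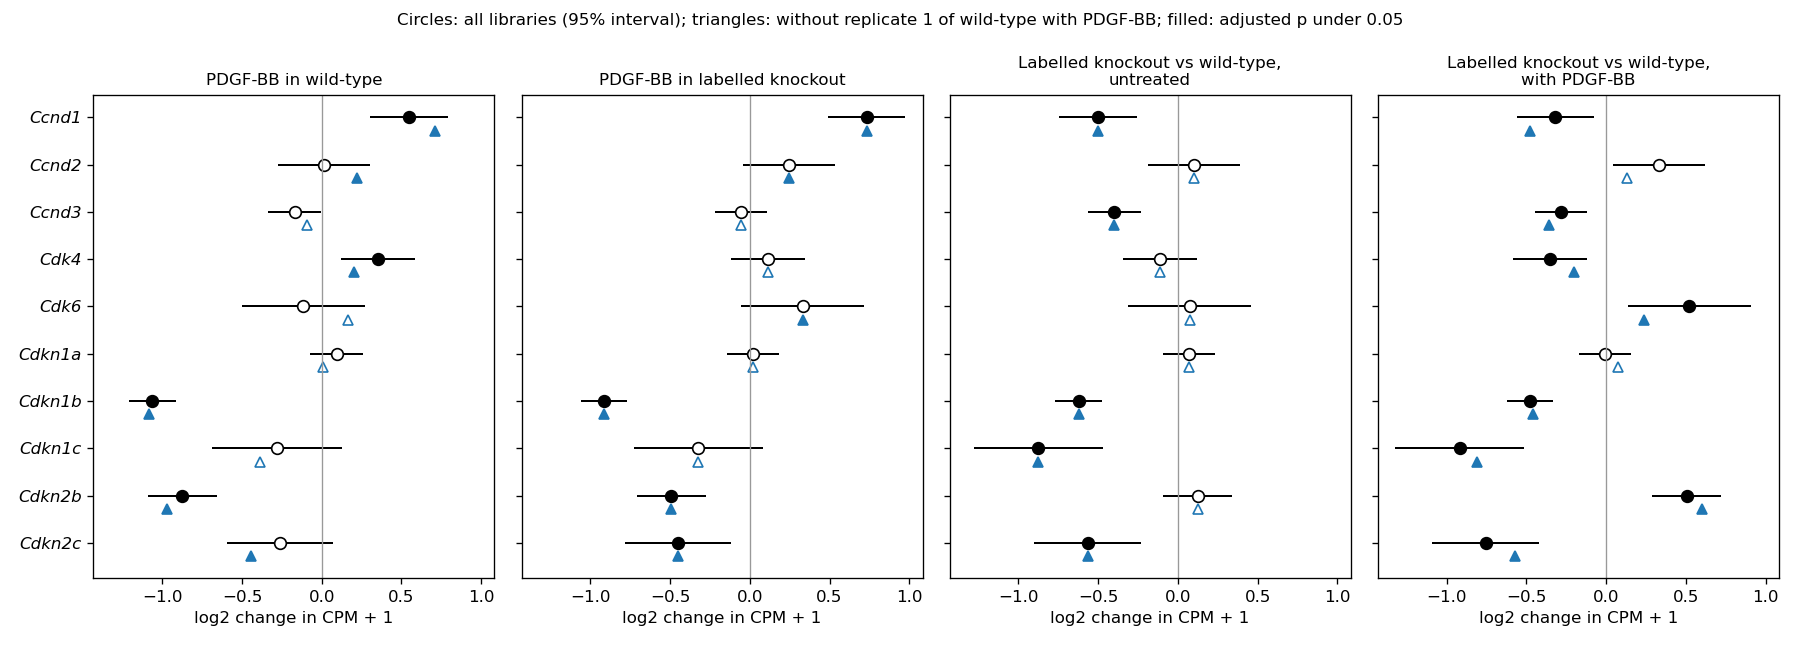
Log2 change in CPM + 1 (horizontal axes, shared) of the 10 genes in 4 comparisons. Circles use all 12 libraries, with 95% intervals; triangles leave out replicate 1 of wild-type with PDGF-BB; filled symbols have an adjusted p under 0.05. Cdkn1b lies left of 0 in all 4 panels, at -1.06, -0.92, -0.62 and -0.48, while Cdkn1a lies near 0 in each.

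The D-cyclin pool shifted towards Ccnd1 with PDGF-BB and towards Ccnd2 under the knockout label. In CPM per kb, Ccnd1 made up 21.9% ± 0.529 (SD, n = 3) of the summed D-type cyclins in untreated and 29.5% ± 0.787 in treated wild-type cells, and 16.5% ± 0.440 and 22.4% ± 0.716 in labelled knockout cells. The ranges of treated and untreated libraries did not overlap in either genotype. Ccnd2 made up 59.8% ± 0.555 and 55.5% ± 2.42 in wild-type and 68.6% ± 0.551 and 66.1% ± 0.597 in labelled knockout cells. The ratio of Ccnd1 to Cdkn1b, per kb, was 2.39 to 2.64 in untreated and 5.96 to 8.85 in treated wild-type libraries, with means of 2.49 and 7.77. In labelled knockout libraries it was 2.31 to 3.02 untreated and 8.41 to 8.84 treated, with means of 2.73 and 8.59, so that the ranges of the 2 genotypes overlapped in each condition. These are shares and ratios within a library and show unequal change only, and their size depends on the exon lengths used.

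**Figure D3:**
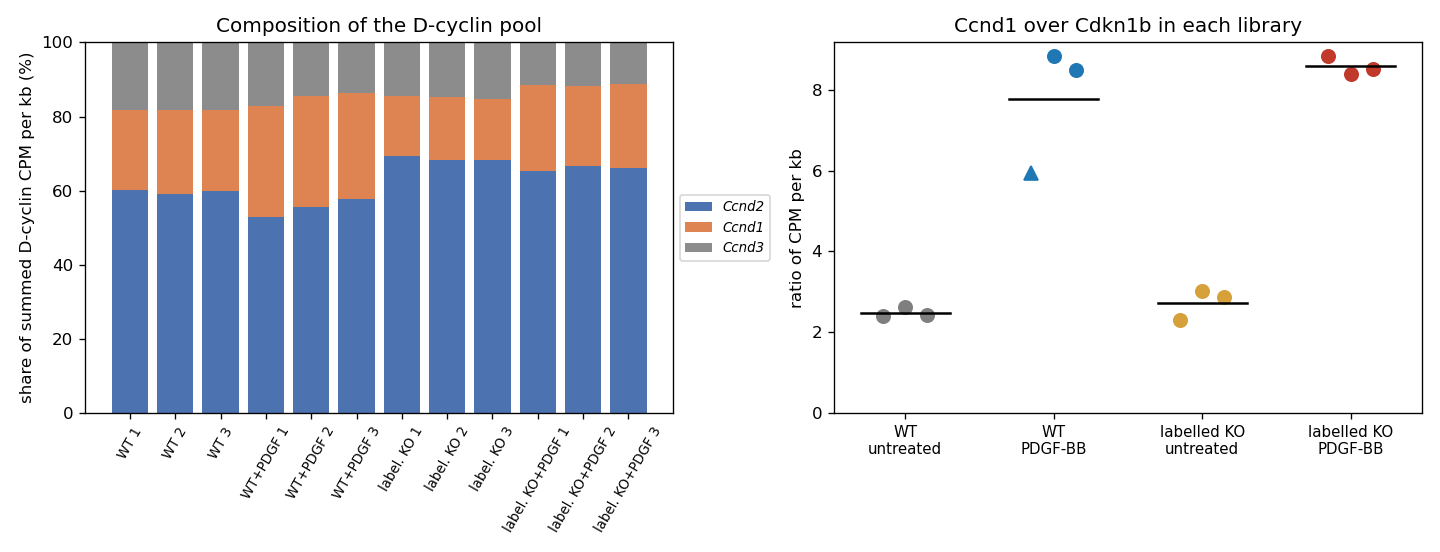
Left, share of each D-type cyclin in the summed CPM per kb of all 3 (vertical axis, percent) in each of the 12 libraries. Right, ratio of Ccnd1 to Cdkn1b in CPM per kb in each library, with group means as lines and replicate 1 of wild-type with PDGF-BB as a triangle at 5.96. The Ccnd1 share and the ratio are higher in every PDGF-BB library than in the untreated libraries of the same genotype.

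The next comparison asked how labelled knockout cells differed from wild-type cells without treatment. All members called were lower: Ccnd1, Ccnd3, Cdkn1b, Cdkn1c and Cdkn2c. They were 5 of 10 members, 0 of them higher, against 34.0% of all genes (9.15% higher, 24.8% lower). Cdkn1c had passed the filter on low values through wild-type libraries only, its untreated labelled knockout libraries reaching at most 0.916 CPM. The filter thus favoured a call of Cdkn1c in this direction. The members' median was -0.26 and that of all genes -0.13 on the log2 scale. Libraries of the 2 genotypes did not overlap for 6 of 10 members, the 5 called and Ccnd2, against 54.7% of all genes. With TMM scaling the median of all genes moved to -0.01 and the split of all calls from 1300 higher and 3523 lower to 1931 and 2032, while 5 members were called, 0 higher and 5 lower, against 27.9% of all genes.

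Cdkn1b fell by 0.62 ± 0.06 (log2, SE; adjusted p = 8.30e-06) between untreated wild-type and labelled knockout, to 0.649 of the wild-type level, and lay 0.50 below the median of all genes. Ccnd1 was lower by -0.50 ± 0.11 (adjusted p = 0.00315) and Ccnd3 by -0.40 ± 0.07 (adjusted p = 0.000923), or -0.37 and -0.27 relative to that median. Cdkn1c was lower by -0.88 ± 0.19 (adjusted p = 0.00249) with 7 to 14 reads in labelled knockout and 24 to 57 in wild-type libraries; on plain CPM its ratio was 0.317. Cdkn2c was lower by -0.57 ± 0.15 (adjusted p = 0.0110), and this call was lost by a narrow margin without replicate 1 of untreated labelled knockout (-0.43, adjusted p = 0.0501).

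The other 5 were not called in untreated cells. Ccnd2 differed by 0.10 (95% interval -0.18 to 0.39), Cdk4 by -0.11 (-0.34 to 0.11; 0.02 with TMM scaling), Cdk6 by 0.07 (-0.30 to 0.45), Cdkn1a by 0.07 (-0.09 to 0.23) and Cdkn2b by 0.12 (-0.09 to 0.33). Cdkn1a and Cdkn2b were called higher in labelled knockout by DESeq2, at 0.22 (adjusted p = 0.0135) and 0.27 (adjusted p = 0.0334).

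Markers of smooth muscle and of other cell types moved with the genotype labels, and their part in these differences was not tested. Of 7 smooth muscle markers tested 4 were called higher in labelled knockout cells untreated and 6 with PDGF-BB, with 0 lower in each condition. Among all genes 9.15% were called higher and 24.8% lower untreated, and 10.6% and 26.6% with PDGF-BB. All 7 endothelial markers were called higher in labelled knockout cells in both conditions, their summed CPM being 74.8 to 97.6 in wild-type and 571 to 696 in labelled knockout libraries. Of 5 macrophage and leukocyte markers tested 5 were lower untreated and 4 with PDGF-BB, with sums of 91.0 to 127 CPM in wild-type and 27.4 to 32.8 CPM in labelled knockout libraries. The summed CPM of 6 fibroblast markers was 1724 to 2750 in wild-type and 4371 to 6524 in labelled knockout libraries, with 2 of 5 tested higher in each condition, 0 lower untreated and 1 lower with PDGF-BB. Nearly all of that sum was Col1a1, a collagen gene that smooth muscle cells also express. The other 5 summed to 107 to 123 CPM in wild-type and 85.8 to 127 CPM in labelled knockout libraries untreated, and to 74.8 to 84.8 and 46.7 to 50.9 CPM with PDGF-BB, where Pdgfra was the marker called lower (-0.92 ± 0.15, adjusted p = 0.000318). Of 4 epithelial markers only Krt18 was tested, at 2.27 to 3.81 CPM in wild-type and 14.4 to 19.0 CPM in labelled knockout libraries. Epcam, Krt8 and Cdh1 together came to at most 0.368 CPM in any library. The sums of 3 Schwann cell markers were 1.26 to 4.38 and 1.56 to 2.67 CPM, with Sox10 at 0 in all libraries. In bulk samples fewer cells of a type and less RNA per cell cannot be told apart.

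With PDGF-BB, labelled knockout cells had more Cdk6 and Cdkn2b and less Ccnd1, Ccnd3, Cdk4, Cdkn1b, Cdkn1c and Cdkn2c than wild-type cells. These were 8 of 10 members, 2 higher and 6 lower, against 37.2% of all genes (10.6% higher, 26.6% lower). Cdkn1c, among those lower, had passed the filter on low values through wild-type libraries only. Libraries did not overlap for 8 of 10 members, against 49.5% of all genes; they overlapped for Ccnd1, which was called, and for Cdkn1a. The median of the members was -0.30 and that of all genes -0.14. With TMM scaling 6 members were called, 3 higher and 3 lower, against 28.7% of all genes. The tools edgeR and DESeq2 each gave that split too, against 29.2% and 29.5% of all genes, with Ccnd2 among those higher and Ccnd1, Ccnd3 and Cdk4 no longer called.

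Cdkn2b was higher in labelled knockout cells by 0.51 ± 0.10 (adjusted p = 0.00139), or 1.42-fold, with libraries at 38.3 to 45.0 CPM against 26.0 to 32.9 CPM. Cdkn1b was lower by -0.48 ± 0.06 (adjusted p = 8.86e-05), Cdkn1c by -0.92 ± 0.19 (adjusted p = 0.00195) and Cdkn2c by -0.76 ± 0.15 (adjusted p = 0.00192). These 4 calls held in every alternative that tested them. For Cdkn1c those were 23 of 24, as a filter on a mean of at least 5 CPM left it out. Its call also rests on a main filter that it passed through wild-type libraries only. Those for Ccnd1 (-0.32 ± 0.11, adjusted p = 0.0370), Ccnd3 (-0.28 ± 0.07, adjusted p = 0.00895), Cdk4 (-0.35 ± 0.10, adjusted p = 0.0188) and Cdk6 (0.52 ± 0.18, adjusted p = 0.0334) were lost in 15, 6, 7 and 5 of 24 alternatives. Without replicate 1 of treated wild-type all 4 were still called (as were 41.6% of all genes), at -0.48, -0.36, -0.20 and 0.24, so that the differences in Cdk4 and Cdk6 were smaller and that in Ccnd1 larger. Cdkn1a differed by -0.01 (95% interval -0.16 to 0.15; 0.10 with TMM scaling) and Ccnd2 by 0.33 (0.05 to 0.62; adjusted p = 0.0602). Neither was called without that replicate, at 0.08 ± 0.05 (adjusted p = 0.188) and 0.13 ± 0.05 (adjusted p = 0.0511).

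The last comparison asked whether the response to PDGF-BB differed between genotypes, by the interaction term of the same fit. None of the 10 members was called by limma-trend, edgeR or DESeq2, against 3.92% (2.25% higher, 1.68% lower), 3.49% and 6.91% of all genes, and each tool gave 1 member with an unadjusted p under 0.05. In limma-trend that was Cdkn2b, whose fall was smaller in labelled knockout cells by 0.38 ± 0.14 (95% interval 0.09 to 0.68; adjusted p = 0.143). Without replicate 1 of treated wild-type the difference was 0.48 ± 0.10 and was called (adjusted p = 0.00559), where 10.9% of all genes were. For Ccnd1 the difference in response was 0.18 (-0.15 to 0.52), and 0.02 ± 0.07 without that library. For Cdkn1b it was 0.15 (-0.05 to 0.34), for Cdk6 0.45 (-0.09 to 0.98) and for Cdk4 -0.24 (-0.56 to 0.08). Both of the latter were smaller without that library, at 0.16 ± 0.11 (adjusted p = 0.380) for Cdk6 and -0.09 ± 0.08 (adjusted p = 0.541) for Cdk4. The difference was 0.23 (-0.17 to 0.63) for Ccnd2, 0.12 (-0.11 to 0.34) for Ccnd3 and -0.19 (-0.65 to 0.27) for Cdkn2c. Without that library they were at 0.02 ± 0.07, 0.04 ± 0.07 and -0.01 ± 0.16. Cdkn1a, at -0.07 (-0.30 to 0.15), and Cdkn1c, at -0.04 (-0.61 to 0.52), turned in direction without it, to 0.01 ± 0.06 and 0.06 ± 0.27. These intervals are wide, and a missed threshold does not show that the genotypes responded alike.

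**Figure D4:**
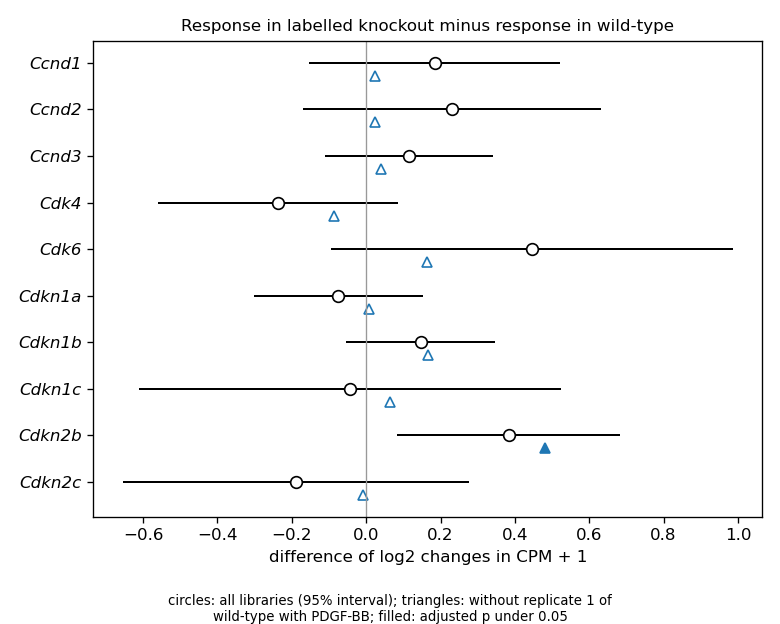
Difference between the response to PDGF-BB in labelled knockout and in wild-type cells (horizontal axis, difference of log2 changes in CPM + 1) for the 10 genes. Circles use all 12 libraries, with 95% intervals; triangles leave out replicate 1 of wild-type with PDGF-BB; filled symbols have an adjusted p under 0.05. Only the Cdkn2b triangle, at 0.48, is filled.

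Partners of these genes in the RB and E2F network moved in both directions with PDGF-BB. Of 29 such genes tested 13 were higher and 11 lower in wild-type, and 9 higher and 8 lower in labelled knockout. The share of all genes called was 59.4% (25.0% higher, 34.4% lower) in wild-type and 42.4% (17.6% higher, 24.8% lower) in labelled knockout. List medians were -0.06 and 0.15 on the log2 scale. Higher in wild-type were E2f6, a repressor E2F (0.93 ± 0.06), its partner subunit Tfdp1 (0.79 ± 0.07) and Cdk7, a kinase that activates other CDKs (0.72 ± 0.07). Lower were Cables1, an adaptor of cyclin-dependent kinases (-2.50 ± 0.15), the pocket protein gene Rbl2 (-1.23 ± 0.12) and Tfdp2 (-1.22 ± 0.10). In labelled knockout cells Cables1 (-2.15 ± 0.15), Tfdp2 (-0.95 ± 0.10) and Rbl2 (-0.85 ± 0.12) were lower, and E2f6 (0.64 ± 0.06), E2f2 (0.58 ± 0.15) and Tfdp1 (0.58 ± 0.07) higher. Cables1 went from 13.4 to 15.3 CPM in untreated to 1.35 to 2.19 CPM in treated wild-type libraries, a larger fall than that of any of the 10 members.

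**Figure D5:**
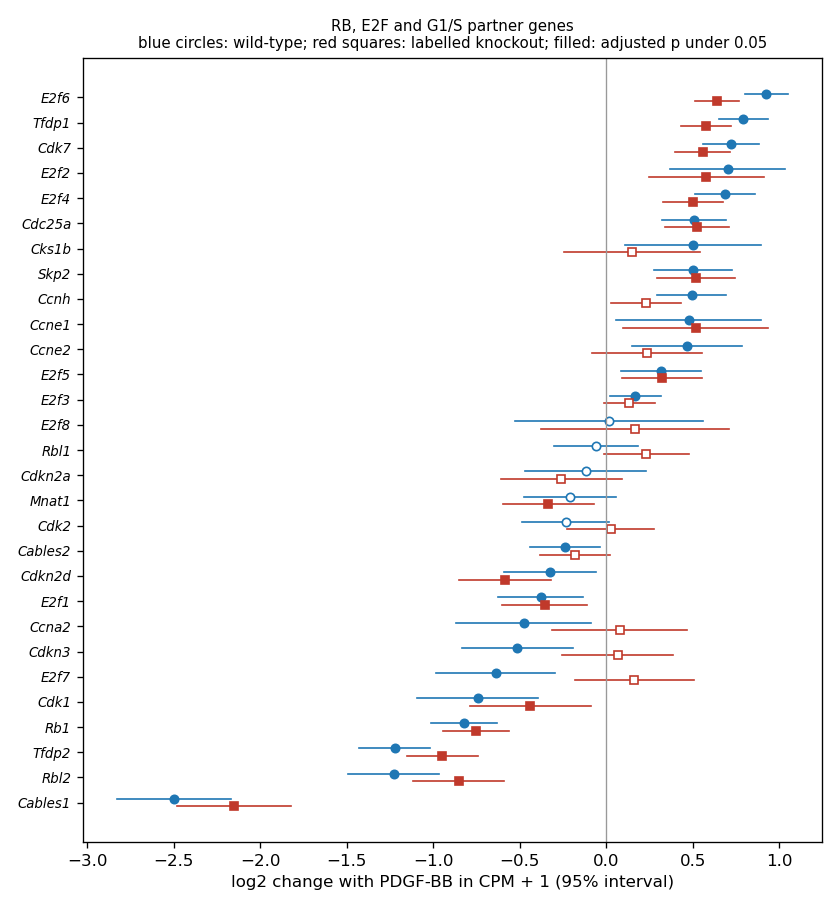
Log2 change in CPM + 1 with PDGF-BB (horizontal axis, with 95% intervals) of the 29 RB, E2F and G1/S partner genes, in wild-type (blue circles) and labelled knockout (red squares); filled symbols have an adjusted p under 0.05. Genes are ordered by the change in wild-type, from Cables1 at -2.50 to E2f6 at 0.93.

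Between genotypes 2 of the 29 were higher and 7 lower in untreated labelled knockout cells, and 1 higher and 9 lower with PDGF-BB. The share of all genes called was 34.0% untreated (9.15% higher, 24.8% lower) and 37.2% with PDGF-BB (10.6% higher, 26.6% lower). Rb1, which encodes the retinoblastoma protein, was higher in both conditions (0.55 ± 0.09 and 0.62 ± 0.09). Cdkn2a, which encodes the INK4 protein p16 and ARF, was higher in untreated cells (0.51 ± 0.16). Lower in untreated cells were Ccna2, encoding cyclin A2 (-0.93 ± 0.18), Cdk1, the mitotic kinase (-0.91 ± 0.16), and Cdkn3, a CDK phosphatase (-0.88 ± 0.15). With PDGF-BB, E2f6 (-0.65 ± 0.06), Cdk1 (-0.61 ± 0.16) and E2f2 (-0.48 ± 0.15) were lower. No interaction was called by limma-trend or edgeR in this list, with 6 and 5 genes at an unadjusted p under 0.05, and DESeq2 called 1. These tools called an interaction for 3.92%, 3.49% and 6.91% of all genes.

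Of 14 replication and proliferation genes that E2F factors are known to control, 5 were higher and 4 lower with PDGF-BB in wild-type. In labelled knockout 4 were higher and 2 lower. Among all genes 59.4% were called in wild-type (25.0% higher, 34.4% lower) and 42.4% in labelled knockout (17.6% higher, 24.8% lower). Pcna, the replication clamp (0.57 ± 0.11), the helicase subunit Mcm5 (0.54 ± 0.14) and the licensing factor Cdt1 (0.41 ± 0.12) were higher in wild-type. The proliferation marker Mki67 (-1.04 ± 0.24), the topoisomerase Top2a (-0.84 ± 0.20) and the helicase subunit Mcm7 (-0.80 ± 0.10) were lower. In labelled knockout cells Cdt1 (0.52 ± 0.12), Cdc6 (0.52 ± 0.19) and Mcm3 (0.45 ± 0.13) were higher and Mcm7 (-0.37 ± 0.10) was among those lower. Between genotypes 4 were lower in untreated labelled knockout cells, among them Top2a (-1.21 ± 0.20), Mki67 (-1.17 ± 0.24) and Mcm7 (-0.61 ± 0.10), and with PDGF-BB 1, Pcna (-0.40 ± 0.11). Genes higher in labelled knockout numbered 0 of 14 in each condition. Among all genes 9.15% were higher and 24.8% lower untreated, and 10.6% and 26.6% with PDGF-BB. No interaction was called by limma-trend, edgeR or DESeq2, with 4, 5 and 5 genes at an unadjusted p under 0.05, against 3.92%, 3.49% and 6.91% of all genes called.

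A list of 27 genes held regulators of the transcription or turnover of D cyclins, p21 and p27, and the FoxO- or p53-linked genes Sesn1, Ccng1 and Ccng2. Of the 27, 9 were higher and 9 lower with PDGF-BB in wild-type, and 7 higher and 6 lower in labelled knockout. Among all genes 59.4% (25.0% higher, 34.4% lower) and 42.4% (17.6% higher, 24.8% lower) were called. The AP-1 subunit gene Fosl1 (3.13 ± 0.18 and 2.49 ± 0.18) and the early-response gene Egr1 (1.71 ± 0.10 and 1.28 ± 0.10) were higher in wild-type and in labelled knockout. Myc was higher too (1.36 ± 0.10 and 1.03 ± 0.10). Jun, an AP-1 subunit that can act on the Ccnd1 promoter, had 60.1 to 70.8 CPM in untreated and 207 to 261 CPM in treated wild-type libraries (1.79 ± 0.09). Its treated labelled knockout libraries had 94.3 to 98.7 CPM (0.68 ± 0.09), and the interaction was called (-1.11 ± 0.13, adjusted p = 0.000431). Among those lower were the FoxO- or p53-linked genes Sesn1 (-1.60 ± 0.10 and -1.26 ± 0.10) and Ccng2 (-1.42 ± 0.08 and -1.23 ± 0.08) in wild-type and in labelled knockout. Klf5 (-1.58 ± 0.19 and -0.61 ± 0.19) and Foxo4, a FoxO factor that can act on Cdkn1b (-1.32 ± 0.09 and -0.79 ± 0.09), were lower in both too.

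Interactions were also called for Foxo4 (0.54 ± 0.13, adjusted p = 0.0317) and Klf6 (0.51 ± 0.09, adjusted p = 0.00485). Thus 3 of the 27 were called, 2 higher and 1 lower, against 3.92% of all genes (2.25% higher, 1.68% lower). Between genotypes 2 were higher and 12 lower in labelled knockout cells in each condition. Among all genes 9.15% were higher and 24.8% lower untreated, and 10.6% and 26.6% with PDGF-BB. Klf4 (-1.32 ± 0.12 untreated and -1.19 ± 0.12 with PDGF-BB) and Smad3 (-0.90 ± 0.09 and -1.09 ± 0.09) were lower in both, Klf5 (-0.66 ± 0.19) in untreated cells and Jun (-1.25 ± 0.09) with PDGF-BB. Foxo1 was higher in both (0.35 ± 0.06 and 0.26 ± 0.06), Klf2 in untreated cells (0.45 ± 0.16) and Usp2, which encodes a deubiquitinase of cyclin D1, with PDGF-BB (0.27 ± 0.08).

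The genes whose pattern was most like each member were found by Pearson's r over the 12 libraries in log2(CPM + 1), among tested genes with a mean of at least 5 CPM. The libraries share the 4 groups and the library that stood apart, so the values describe these libraries only. Ccnd1 was most like Itpr3 (r = 0.989), Epb41l1 (0.986) and Axl (0.986). Cdkn1b was most like Gprasp1 (0.993), Trafd1 (0.993) and Hoxa7 (0.992), and Cdkn2b like Tmeff2 (0.985), Gadd45b (0.975) and Pim3 (0.974). Replicate 1 of treated wild-type lay off its group in several members, Ccnd1 among them. The nearest genes of others were Sf3b6 for Cdk4 (0.990), Pikfyve for Ccnd2 (0.971), Zfp469 for Cdk6 (0.962), Pdcl3 for Cdkn1a (0.971) and Slc48a1 for Cdkn2c (0.978). Ccnd3 was most like Dync1li2 (0.980) and Cdkn1c like Idnk (0.966).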

How the data were processed

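RNA of 12 libraries was prepared with a stranded mRNA kit, per the labels' protocols. HISAT2, HTSeq and the build mm10 are named in the submitters' processing notes, with no version or strand setting. The table deposited by the authors is named for FPKM but holds CPM: each library sums to 1000000, and dividing by the CPM of 1 read gave whole reads (within 0.001) for 100% of values, so the deposited CPM are gene counts divided by the library total of 14953807 to 21698488 reads and scaled to 1000000. From these, limma 3.58.1 (R 4.3.3) was run on log2(CPM + 1), which understates changes of low genes, in 1 fit of 12 libraries with a mean per group and no block, over 14202 genes. edgeR 4.0.16 and DESeq2 1.42.0 on the recovered read counts were alternatives. The limma fit was tested on simulated data for the PDGF-BB comparison in wild-type. The outcome is not given here, and no call rests on it.

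The members and gene lists were chosen with earlier results of these data known. Named list genes are, per list, comparison and direction, the up to 3 called genes with the largest log2 change; for likeness the 3 highest r, predicted gene models left out. A gene that this rule selects is not reported here. The list of 30 RB and E2F genes had 29 in the table. Promoters came from RefSeq (GRCm38.p6) and gene positions from the table, identical to GENCODE M21.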

Additional observations from a re-analysis of the deposited data

How the results depend on the processing

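Of 21 calls on members, 14 held in every alternative that tested them, and of 29 results not called 13 stayed so. In all, 24 alternatives were run per comparison and 23 for the interaction. The stricter filter on mean CPM left out Cdkn1c. Counts of members called that moved by over 1.5 times were these: with array weights, whose estimation stopped before it converged, 7 under PDGF-BB in wild-type (4 otherwise) and 3 interactions (0 otherwise); with only the compared groups, 7 under PDGF-BB in labelled knockout (4 otherwise) and 4 between genotypes with PDGF-BB (8 otherwise); with quantile normalization 5 of the latter; and with the exon length trend removed 1 interaction. Leaving out 1 library at a time gave 3 to 6, 3 to 6, 4 to 5, 5 to 8 and 0 to 1 members, the 1 interaction when treated wild-type replicate 1 was left out and the 5 when treated labelled knockout replicate 1 was. Without that wild-type library 63.7% of all genes were called under PDGF-BB in wild-type and 10.9% for the interaction. Counts over all genes moved with the setting too, and are not given here for every setting. Moves in the member counts are therefore not read as results about the members. Of the 29 results not called 10 changed sign in at least 1 alternative, and of the 21 calls 0 did. The sign change came with a call for Cdk6 under PDGF-BB in wild-type with the exon length trend removed (0.30) and for Cdkn1a between genotypes with PDGF-BB with array weights (0.078) or that trend removed (0.20); the cause was not tested. With treated wild-type replicate 1 left out Cdk6 also changed sign (0.17, adjusted p = 0.0805), as did Cdkn1a (0.08, adjusted p = 0.188), and by edgeR and with array weights Cdk6 was at 0.02. Same-numbered libraries did not deviate together (r from -0.23 to 0.18 over 18 pairs, 3 over 0.1), so numbers were not treated as pairs. The replicate block gave 5, 4, 5, 8 and 0 members called, adding Ccnd3 under PDGF-BB in wild-type (-0.17, adjusted p = 0.0430). In the gene lists, the 10 RB and E2F genes called between genotypes with PDGF-BB were 5 by edgeR and 6 by DESeq2, and the 1 replication gene 2 by each. These tools called 29.2% and 29.5% of all genes there. The 14 genes of the regulator list called untreated were 9 by each. Interactions over all genes numbered 557, and 274 to 1554 without 1 library, 371 with no filter, 905 by DESeq2, 1128 with the length trend removed and 4720 with array weights; array weights gave 8006 and 10265 genotype calls untreated and with PDGF-BB in place of 4823 and 5284, and the compared groups alone 3438 in place of the latter. Cdkn1c, with 4 to 57 reads per library, is limited by depth.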
